A study of Mus musculus with 24 samples.

Results

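The RGS genes, which encode regulators of G protein signaling, were followed in 3T3-L1 cells, a line of mouse embryonic fibroblasts that turns into adipocytes when it is treated with hormones. The 9 genes described here are Rgs2, Rgs3, Rgs4, Rgs5, Rgs10, Rgs12, Rgs16, Rgs17 and Rgs19, out of 26995 genes in the read tables. They were picked by symbol, and each was read through the 3′ end entry that held the most reads over the 24 libraries. The set was drawn up around Rgs2, because its labelled reads were much lower with ML-792 than with DMSO after induction. For Rgs2, all values are therefore given as a description with no test.

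Newly made RNA was marked with 100 µM 4-thiouridine for 45 min (SLAMseq), and 3′ end libraries were then sequenced. A total count is every read of an entry, and a labelled count is its reads with at least 1 T-to-C conversion, which stand for RNA made during the labelling. The cells were sampled at day −2 (written in the titles as _2 and read so here), when they were still preadipocytes, and at days 1, 3 and 7 after induction. Differentiation was started with insulin at 10 µg/mL, dexamethasone at 1 mM and IBMX, a blocker of cyclic nucleotide phosphodiesterases, at 0.5 mM. From day 3, only the insulin was kept. At every day, 3 libraries came from DMSO cultures, and another 3 came from cultures given 0.5 µM ML-792, an inhibitor of the enzyme that activates SUMO. In the experimental scheme both treatments run from day −2 to day 7, and how long before the day −2 sampling the inhibitor was added is not given in the sources used here. No group carried a genetic change, and the line is a cell culture model rather than fat tissue.

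G protein coupled receptors act by loading a Gα subunit with GTP. RGS proteins end that state, because their shared domain speeds up GTP hydrolysis by Gα. Members differ in the Gα proteins they act on and in how fast their own mRNA comes and goes. Rgs2, Rgs3, Rgs4, Rgs5 and Rgs16 belong to the R4 subfamily of mostly small proteins, Rgs10 and Rgs12 to the R12 subfamily, and Rgs17 and Rgs19 to the RZ subfamily. In fat cells, G protein pathways control lipolysis, and cAMP is one of the signals that start adipogenesis.

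Libraries held between 13554718 and 27013352 total reads (median 17428698) and between 115709 and 820046 labelled reads (median 185851). The labelled share of a DMSO library was 3.17% ± 0.485 (SD, n = 3) at day −2, and 1.27% ± 0.0798, 1.03% ± 0.115 and 1.03% ± 0.0869 at days 1, 3 and 7. With ML-792 it was 2.83% ± 0.206, 1.06% ± 0.0482, 0.958% ± 0.0369 and 0.837% ± 0.0310. Counts below were normalized by library sizes taken from the total reads, so labelled counts carry this fall in the labelled share. All 7 adipocyte markers examined were higher at day 7 than at day −2 in DMSO (adjusted p below 0.01 by edgeR), and their summed normalized count went from 23336 to 676807 in DMSO and from 24376 to 870410 with ML-792. The 7 preadipocyte and fibroblast markers went from a sum of 314335 to 33248 in DMSO, with 6 of them lower. In bulk RNA, fewer cells of a type and less RNA per cell cannot be told apart.

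Over the DMSO time course, 5 of the 7 tested members other than Rgs2 differed from day −2 on at least 1 day at an adjusted p below 0.01 (edgeR's quasi-likelihood test), against 42.5% of all 26563 entries tested. The 5 were Rgs4, Rgs16, Rgs10, Rgs12 and Rgs17, and each was lower on the days on which it passed. With ML-792, the same 5 genes passed, against 47.6% of entries. Without replicate A, 4 passed in DMSO (Rgs12 lost) and 3 with ML-792 (Rgs12 and Rgs17 lost), and without replicate C, 3 passed with ML-792 (the same pair lost). Rgs3 and Rgs19 did not pass, and Rgs5 had too few reads to be tested. Rgs2 is left out of these counts, since its libraries of days 1, 3 and 7 in both arms are those it was chosen on.

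**Figure D1:**
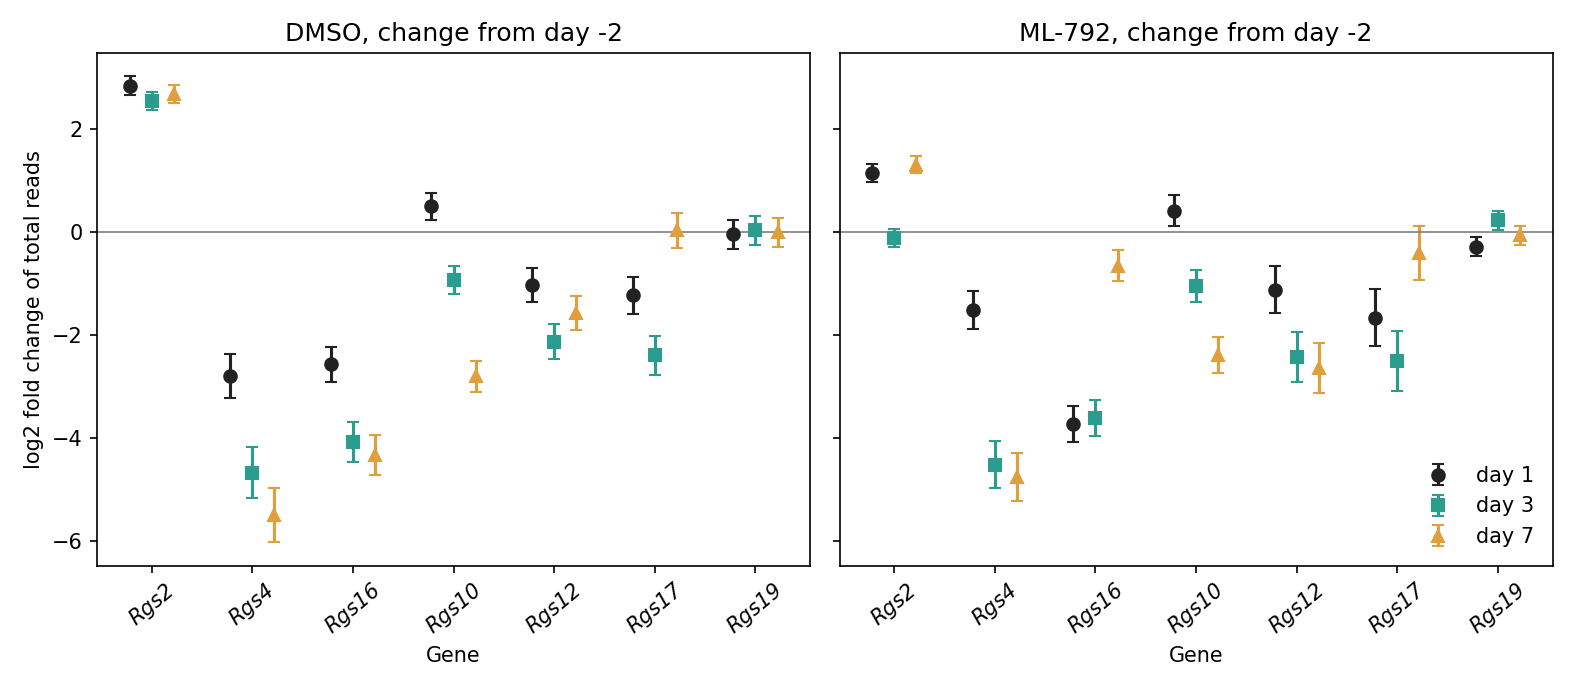
Log2 fold changes in total reads from day −2 at days 1, 3 and 7 (y axis, bars ± SE) for 7 members, with DMSO and ML-792 in separate panels. Rgs2 lies above 0 on all days in DMSO, Rgs4 and Rgs16 lie far below, and Rgs16 returns towards 0 at day 7 in the ML-792 panel alone.

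Rgs2 encodes an R4 protein with a preference for Gαq, and it is known as a gene that is switched on quickly by hormones and cAMP. Its entry is the 3′ end of NM_009061.4 at chr1:143999338-144001679 on the minus strand of mm10. In DMSO, its normalized total counts at day −2 were 3974, 3114 and 4282 in replicates A, B and C. At day 1 they were 31013, 23180 and 27875. They were 22646, 20790 and 23472 at day 3, and 24256, 24367 and 24639 at day 7. The lowest library after induction was thus well above the highest at day −2. The means were 7.22-fold, 5.88-fold and 6.44-fold higher on days 1, 3 and 7 (log2 fold changes of 2.85, 2.56 and 2.69, each with an SE of 0.18).

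With ML-792, Rgs2 began at a like level, with total counts of 4875, 3755 and 4556 at day −2. The counts at day 1 were 11142, 8641 and 9427. At day 3 they were 4544, 3313 and 4304, and at day 7 they were 10389, 9808 and 12642. Rgs2 was therefore higher than at day −2 on days 1 and 7, while at day 3 its libraries overlapped those of day −2. The log2 fold changes within the ML-792 arm were 1.15, −0.12 and 1.32.

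Set against DMSO of the same day, the ML-792 libraries of Rgs2 overlapped the controls at day −2 (log2 fold change 0.21, SE 0.16). They lay below every control at the later days, 2.81-fold lower at day 1, 5.50-fold lower at day 3 and 2.23-fold lower at day 7 (log2 fold changes of −1.49, −2.46 and −1.16). The gap was thus widest at day 3, when DMSO cultures held a mean of 22303 ± 1374 and ML-792 cultures 4054 ± 652 (SD, n = 3). Over the 8 groups, Rgs2 was highest in DMSO at day 1 (27356 ± 3943), which overlapped DMSO at day 7 (24421 ± 197). DMSO at day 3 came next, and did not overlap day 7. ML-792 at day 7 (10946 ± 1497) and at day 1 (9737 ± 1279) overlapped each other, and ML-792 at day −2, ML-792 at day 3 and DMSO at day −2 formed the lowest, overlapping levels.

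**Figure D2:**
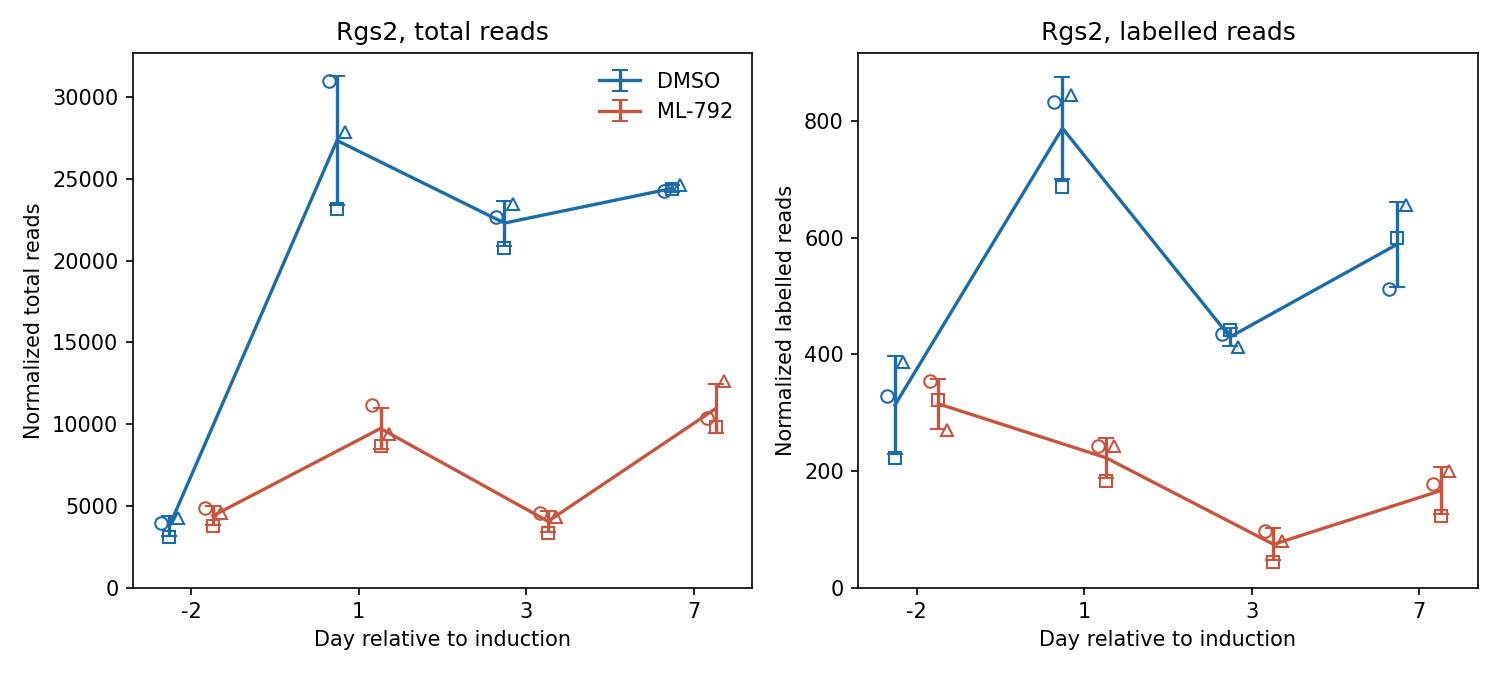
Rgs2 normalized counts (y axis) at days −2, 1, 3 and 7 (x axis) for total reads and for labelled reads, in DMSO and ML-792. Points are libraries (circles replicate A, squares B, triangles C), and lines with bars show the mean ± SD. The arms start together, and the 3 ML-792 libraries lie below the 3 DMSO libraries at each later day.

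Labelled reads of Rgs2 also lay higher after induction in DMSO, while labelled reads of most genes lay lower. The normalized labelled counts were 329, 223 and 387 at day −2 and 832, 687 and 844 at day 1. They were 436, 442 and 412 at day 3, and 511, 599.7 and 656 at day 7. Labelled Rgs2 RNA was thus above every day −2 library on all 3 later days, by log2 fold changes of 1.33, 0.46 and 0.91. Over the same days, the median log2 fold change of all 10589 labelled entries tested was −1.27, −1.70 and −1.54. When labelled counts were scaled by labelled reads instead, those medians were −0.01, −0.18 and −0.12, and the Rgs2 values became 2.60, 2.01 and 2.36.

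In ML-792, labelled Rgs2 counts were 354, 322 and 269.5 at day −2, inside the DMSO range. At day 1 they were 243, 183 and 242. They were 97.8, 44.3 and 80.4 at day 3, and 178, 122 and 199 at day 7. The ML-792 libraries were 3.54-fold, 5.79-fold and 3.54-fold lower than DMSO on days 1, 3 and 7, with no overlap, which are the values that Rgs2 was chosen for. The raw counts behind the lowest group, ML-792 at day 3, were 90, 35 and 66 labelled reads. The median of all labelled entries in the same comparisons was −0.30, −0.08 and −0.37 on the log2 scale, against −1.82, −2.53 and −1.82 for Rgs2.

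The direction within the ML-792 arm depended on the scaling. Labelled Rgs2 differed from day −2 by −0.50, −2.08 and −0.92 (log2) on days 1, 3 and 7 with library sizes of total reads, and by 0.84, −0.65 and 0.67 with labelled reads as the base. Against DMSO of the same day, the scaling by labelled reads left the values at −1.57, −2.47 and −1.50.

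The labelled share of Rgs2 reads, its labelled reads over its own total reads, needs no library size and is another quantity than the labelled level. It still carries the fall in the labelled share of whole libraries. That library share was 3.17%, 1.27%, 1.03% and 1.03% on the 4 days in DMSO, and 1.06% at day 1 and 0.837% at day 7 with ML-792. In DMSO the Rgs2 share was 8.28%, 7.15% and 9.04% at day −2 in replicates A, B and C, and between 1.76% and 3.03% in the 9 later libraries. With ML-792 it was 7.26%, 8.57% and 5.92% at day −2, and between 1.25% and 2.57% in the later libraries. At day 1 the ML-792 libraries (2.18%, 2.11% and 2.57%) lay below the DMSO libraries (2.68%, 2.96% and 3.03%). At day 7 the ML-792 libraries (1.71%, 1.25% and 1.58%) again lay below the DMSO libraries (2.11%, 2.46% and 2.66%). At day 3 the ML-792 shares of 2.15%, 1.34% and 1.87% overlapped those of DMSO at 1.92%, 2.12% and 1.76%. So at day 3, where total Rgs2 reads differed most between arms, labelled and total reads were lower with ML-792 by about the same factor.

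Genes that followed Rgs2 most closely over the 24 libraries in total reads were Limk1 (Pearson r = 0.914), Rras2 (0.905), Adamts15 (0.898), Tle1 (0.885) and Srprb (0.885), out of 13330 genes. These r values are over libraries that share groups and depth, and are given as a description. Limk1, a kinase of actin regulation, had mean counts of 625, 2543, 1917 and 2733 on the 4 days in DMSO and 649, 1294, 1072 and 1018 with ML-792. Adamts15, a secreted protease, went from 13.7 to 474, 541 and 925 in DMSO and from 17.1 to 102, 90.7 and 385 with ML-792. Among labelled reads of 6433 genes, the closest were 2610507B11Rik (0.811), Taf5 (0.747), Mepce (0.742), Fam129b (0.735) and Atg101 (0.721). Some of these rest on few reads. Group means ran from 1.86 to 12.8 for 2610507B11Rik and from 0.422 to 12.2 for Taf5, and from 34.5 to 90.3 for Fam129b. The other RGS members had r below 0 with Rgs2 in total reads, from −0.62 for Rgs3 to −0.10 for Rgs17.

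Rgs2, Rgs4 and Rgs16 all lie on chromosome 1 and were the members with the most labelled reads, so their promoters are shown. The stretches are the 250 bases before the transcription start in RefSeq (GRCm38.p6, the build called mm10), written 5′ to 3′ in the sense of the gene. Capitals mark TGACG or its reverse complement CGTCA, the core stretch of the cAMP response element TGACGTCA.
Rgs2, chr1:144004150-144004399, minus strand: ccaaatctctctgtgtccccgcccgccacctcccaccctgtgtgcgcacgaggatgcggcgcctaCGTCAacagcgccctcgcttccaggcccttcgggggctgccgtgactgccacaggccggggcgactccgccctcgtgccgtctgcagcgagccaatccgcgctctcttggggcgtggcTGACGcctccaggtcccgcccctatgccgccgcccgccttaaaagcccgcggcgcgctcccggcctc
Rgs4, chr1:169747643-169747892, minus strand: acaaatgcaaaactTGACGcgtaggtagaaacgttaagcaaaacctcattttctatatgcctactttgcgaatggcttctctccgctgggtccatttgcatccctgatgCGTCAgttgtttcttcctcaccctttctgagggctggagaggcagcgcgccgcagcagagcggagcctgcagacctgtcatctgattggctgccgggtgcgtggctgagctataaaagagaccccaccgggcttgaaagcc
Rgs16, chr1:153740103-153740352, plus strand: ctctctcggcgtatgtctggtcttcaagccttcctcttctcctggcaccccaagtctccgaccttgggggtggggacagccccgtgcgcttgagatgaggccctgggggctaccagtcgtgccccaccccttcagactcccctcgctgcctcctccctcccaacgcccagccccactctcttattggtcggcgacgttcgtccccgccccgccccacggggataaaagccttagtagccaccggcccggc
The Rgs2 stretch held 2 such matches, starting at −185 and −67 counted from the transcription start, and the Rgs4 stretch held 2, at −236 and −141. The Rgs16 stretch held none. All 9 members matched the RefSeq promoter table, with 13 windows of 300 bases between them, and 3 members (Rgs2, Rgs4 and Rgs12) had a match in 1 window each. The full TGACGTCA was in no member's window. Of all 32851 windows in that table, 20.8% held TGACG on either strand and 1.79% held TGACGTCA. A match here is a run of letters and not a site.

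Rgs16, an R4 protein that acts on Gαi and Gαq, lost nearly all of its reads on induction, and regained a large part of them at day 7 with ML-792 alone. Its entry is NM_011267.3 at chr1:153743856-153745468 on the plus strand. In DMSO the raw total reads were 442, 467 and 458 at day −2 and 97, 71 and 55 at day 1. They were 17, 19 and 25 at day 3, and 30, 12 and 11 at day 7. Each later day lay below every day −2 library. Rgs16 fell by 5.95-fold, 17.1-fold and 20.1-fold (log2 −2.57, −4.09 and −4.33; SE 0.35, 0.38 and 0.39; edgeR adjusted p = 6.13e-05, 5.01e-07 and 2.56e-07). Without replicate A, the value at day 7 was −5.03.

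With ML-792, Rgs16 had 448, 444 and 509 raw reads at day −2 and 40, 12 and 24 at day 1. It had 36, 20 and 17 reads at day 3, followed by 150, 169 and 201 at day 7. It fell by 13.3-fold at day 1 and 12.4-fold at day 3 (edgeR adjusted p = 3.47e-06 and 1.55e-06). At day 7 the log2 fold change from day −2 was −0.65 (SE 0.30, edgeR adjusted p = 0.0934), which did not pass, although the 3 libraries still lay below those of day −2. The normalized mean was 224 ± 48.2 with ML-792 at day 7, and 19.6 ± 12.3 in DMSO (SD, n = 3).

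Of the 7 tested members other than Rgs2, Rgs16 was the one that passed at an adjusted p below 0.1 for ML-792 against DMSO on any day, while 20.8% of all entries did. Rgs16 was 11.4-fold higher with ML-792 at day 7 (log2 3.50, SE 0.39, edgeR adjusted p = 1.2e-06), with no overlap between the groups. Without replicate A the log2 value was 4.30. In the same comparison, 3 of the 7 preadipocyte and fibroblast markers were also higher and 1 was lower, with a list sum of 44626 to 63702 in the ML-792 libraries and 25261 to 37891 in DMSO. The higher ones were Pdgfra (log2 1.09), Col3a1 (0.87) and Col1a1 (0.74; edgeR adjusted p = 7.67e-06, 0.00614 and 0.0357). The lower one was Dlk1 (log2 −1.07, edgeR adjusted p = 0.0112). Most of the sum was Col3a1 and Col1a1, with means of 31165 and 19821 in the ML-792 libraries. The part of these markers in the Rgs16 result was not tested. At day 1 Rgs16 was lower, by a log2 fold change of −1.32 (SE 0.37, edgeR adjusted p = 0.0354), again with no overlap. That call at day 1 was lost when replicate B was left out (adjusted p = 0.218), without replicate C (0.206) and with the 6 libraries of the day alone (0.215). At day −2 and day 3 the groups overlapped, with log2 values of −0.17 and 0.30. The difference between the arms changed with the day for Rgs16 (edgeR's F-test of the interaction of day and treatment, adjusted p = 8.38e-06), which 9.66% of all entries showed at an adjusted p below 0.1.

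**Figure D3:**
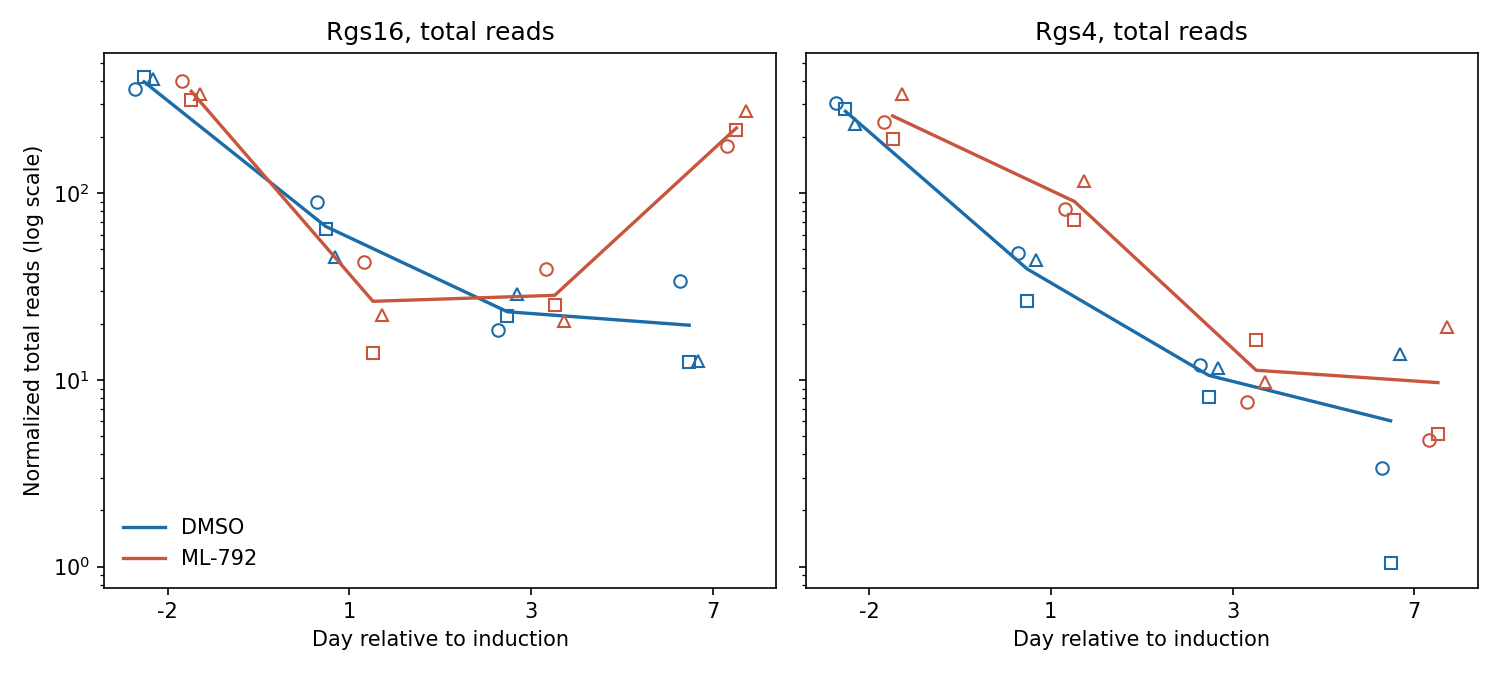
Normalized total counts of Rgs16 and Rgs4 (y axis, log scale) at days −2, 1, 3 and 7 in DMSO and ML-792. Points are libraries and lines join group means. Rgs16 climbs again at day 7 in the 3 ML-792 libraries and not in DMSO, and Rgs4 stays low in both arms.

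Among labelled reads, 3 members other than Rgs2 could be tested, Rgs4, Rgs12 and Rgs16, and all 3 passed over the DMSO time course, against 44.2% of the 10589 labelled entries. The same 3 passed with ML-792, against 51.2%. All of these were falls, as were the medians of all labelled entries. With scaling by labelled reads, 2 passed in DMSO (Rgs4 and Rgs16) and 1 with ML-792 (Rgs16). Rgs12 was lost in both arms without replicate A or without replicate C. Labelled Rgs16 reads were 132, 89 and 129 at day −2 in DMSO and 11, 6 and 1 at day 1. At day 3 there were 1, 0 and 4, and at day 7 there were 0, 0 and 7. All later libraries were far below day −2, and the fall passed on each day (log2 −4.20, −5.64 and −5.21; edgeR adjusted p = 8.05e-06, 3.03e-07 and 6.49e-07). These sizes rest on few reads. They were −4.92 without replicate A and −3.58 without replicate C at day 1, −7.09 without replicate C at day 3, and −4.59 without replicate A at day 7, where leaving out replicate C left no labelled read.

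With ML-792, labelled Rgs16 reads were 100, 103 and 118 at day −2, 3, 1 and 0 at day 1, and 6, 1 and 1 at day 3. At day 7 there were 13, 9 and 7, all still below day −2. The log2 difference from DMSO at day 7 was 2.19 (SE 0.79, edgeR adjusted p = 0.242), which did not pass. It rested on few reads, and replicate C of DMSO held all 7 of that group's labelled reads among 11 total reads. Without replicate C the fitted value was 6.77 (edgeR adjusted p = 0.0303), against a group with no labelled read left. For ML-792 against DMSO in labelled reads, 0 of the 3 tested members other than Rgs2 passed with edgeR (1 had an unadjusted p below 0.05, and DESeq2 called 1, Rgs16 in both cases), against 2.32% of entries. The interaction was likewise called for 0 of 3 by edgeR (1 at an unadjusted p below 0.05, and 0 by DESeq2), against 0.246% of entries.

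Rgs4, an R4 protein that acts on Gαi and Gαq, fell in both arms and did not come back. Its entry is NM_009062.3 at chr1:169741477-169743680 on the minus strand. The DMSO libraries had 373, 317 and 265 raw reads at day −2 and 52, 29 and 53 at day 1. They had 11, 7 and 10 at day 3, and 3, 1 and 12 at day 7. Every later library was below every day −2 library, by 6.99-fold, 26.0-fold and 45.4-fold on the 3 days (log2 −2.80, −4.68 and −5.50; edgeR adjusted p = 0.000186, 1.67e-06 and 5.13e-07). The call at day 1 was lost without replicate A (adjusted p = 0.0174), and at day 7 the log2 value was −7.01 without replicate C, which held 12 of that group's reads.

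With ML-792, Rgs4 had 271, 277 and 508 reads at day −2 and 77, 62 and 125 at day 1. It had 7, 13 and 8 reads at day 3, and 4, 4 and 14 at day 7. The fall was smaller at day 1 (log2 −1.52, edgeR adjusted p = 0.0065, lost without replicate A at 0.0896 and without replicate C at 0.025), and it reached −4.52 and −4.76 later (adjusted p = 2.18e-06 and 1.63e-06; −5.40 at day 7 without replicate C). At day 1 the ML-792 libraries all lay above the DMSO libraries, 90.3 ± 23.3 against 39.3 ± 11.4 in normalized counts (SD, n = 3). That difference was 2.30-fold and did not pass (log2 1.20, SE 0.42, edgeR adjusted p = 0.12). It passed with DESeq2 (adjusted p = 0.0242), with no filter on low counts (0.0341) and with 1 entry per gene (0.0872). Labelled Rgs4 reads fell as well, from 53, 39 and 43 at day −2 in DMSO to 8, 5 and 1 at day 1, and to 2, 0 and 0 at day 7 (log2 −3.18 and −5.50, edgeR adjusted p = 0.00214 and 3.01e-05). The call at day 1 was lost without replicate A (0.0229) or replicate C (0.0259), and without replicate A the fitted value at day 7 was −8.21, against a group with no labelled read left. At day 3 there were 0, 0 and 7 labelled Rgs4 reads, the 7 being among 10 total reads of replicate C. The log2 value at day 3 was −3.80, and its call was lost without replicate A (−3.07, edgeR adjusted p = 0.0316). Without replicate C, which left no labelled read, it was −8.32.

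Rgs3 and Rgs5, the remaining R4 members, were near the limit of detection. Rgs3, read at chr4:62702246-62703019 on the plus strand, had 17, 10 and 23 reads at day −2 in DMSO and 0, 0 and 1 at day 7. Its log2 fold change at day 7 was −4.89 and just failed the threshold (edgeR adjusted p = 0.0103), and it passed with DESeq2 (0.00645) and with no filter on low counts (0.00627). Rgs5, widely used as a marker of pericytes, had 61 reads in all 24 libraries and none at day 7. Its DMSO libraries held 4, 8 and 4 reads at day −2, so that day 7 was at least 1.41-fold lower against a floor of 3 counts per library.

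Mural cells, the contractile cells around vessels, are known for Rgs4 and Rgs5, so their markers are given beside these genes. The 8 mural markers, of which 7 exceeded 3 counts in a library, summed to 31759 to 63861 in DMSO at day −2 and 1271 to 1543 at day 7. With ML-792 the sums were 34942 to 57905 and 825 to 1044. Of the 5 that could be tested in DMSO, 3 were lower at day 7 (Acta2, Tagln and Notch3) and 2 were higher, Myh11 by 4.53 and Des by 3.80 on the log2 scale (edgeR adjusted p = 1.7e-05 and 2.74e-07). At day −2 most of this was Acta2, which fibroblasts also make (50754 ± 17126 in DMSO, SD, n = 3), while the more specific Kcnj8 and Abcc9 never exceeded 1 and 4 raw reads in any library. Immune markers summed to between 25.5 and 146 in a library, with Ptprc at 0 throughout, and endothelial markers summed to between 0 and 20.5. The part of these markers in the fall of Rgs4 was not tested.

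Rgs10, a small R12 protein that acts on Gαi, fell late in both arms. It was read at chr7:128373621-128373895 on the minus strand. The DMSO libraries held 215, 155 and 188 reads at day −2 and 269, 267 and 232 at day 1. At day 3 there were 80, 62 and 81, and at day 7 there were 16, 17 and 29. Days 3 and 7 lay below every library of day −2, and day 7 passed (6.99-fold lower, log2 −2.80, SE 0.30, edgeR adjusted p = 1.5e-06). Day 3 narrowly failed with edgeR (log2 −0.93, adjusted p = 0.011) and passed with DESeq2 (0.00216). With ML-792, Rgs10 was 5.24-fold lower at day 7 (edgeR adjusted p = 5.91e-05), and its groups overlapped those of DMSO on every day.

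Rgs12, a large R12 protein with a PDZ domain and a GoLoco motif that binds Gαi, also fell. It was read at chr5:35032452-35033595 on the plus strand. In DMSO it had 439, 211 and 500 reads at day −2 and 167, 118 and 272 at day 1. It had 69, 52 and 78 at day 3, and 102, 88 and 112 at day 7. The day −2 libraries were widely spread, and all of days 3 and 7 lay below them (log2 −2.13 and −1.57, edgeR adjusted p = 0.000116 and 0.00124). Both calls were lost without replicate A (0.013 and 0.0405), and the one at day 7 without replicate C (0.0155).

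With ML-792, Rgs12 fell by 2.43 and 2.64 on the log2 scale at days 3 and 7 (edgeR adjusted p = 0.000976 and 0.000577), and these calls too were lost without replicate A (0.0281 and 0.0238) or replicate C (0.0212 and 0.0166). At day 7 its ML-792 libraries, with 61, 30 and 53 reads, lay below those of DMSO, by a log2 fold change of −0.86 that did not pass (SE 0.45, edgeR adjusted p = 0.325). With no filter on low counts its adjusted p was 0.0997, and without replicate B it was 0.0586. Labelled Rgs12 reads were few, at 13, 2 and 14 at day −2 in DMSO and 0 in all 3 libraries at day 3, at least 2.43-fold lower against the floor of 3 counts per library (edgeR adjusted p = 0.00662, lost without replicate A at 0.0682 and without replicate C at 0.0768). With ML-792 they were 21, 2 and 20 at day −2 and 0 in all libraries at day 7, at least 2.91-fold lower (edgeR adjusted p = 0.00161, lost without replicate A at 0.0497 and without replicate C at 0.0188).

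Rgs17, an RZ protein that acts on Gαi and Gαz, dipped and returned. It was read at chr10:5825663-5832952 on the minus strand. The DMSO libraries had 89, 131 and 70 reads at day −2 and 45, 37 and 39 at day 1. They had 17, 16 and 9 at day 3, and 78, 63 and 92 at day 7. Day 3 was the low point, 5.30-fold below day −2 (log2 −2.39, edgeR adjusted p = 0.000109), and day 7 overlapped day −2 (log2 0.04, adjusted p = 0.944). With ML-792 it was also lowest at day 3, with 25, 3 and 16 reads (log2 −2.50, edgeR adjusted p = 0.00301, lost without replicate A at 0.0163 and without replicate C at 0.033). The log2 value there was −3.22 without replicate A and −1.74 without replicate B. Its level at day 7 did not pass against day −2 in that arm (log2 −0.40, adjusted p = 0.574).

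Rgs19, an RZ protein also called GAIP that acts on Gαi, had no called change. It was read at chr2:181688419-181689106 on the minus strand. The DMSO libraries had 706, 971 and 671 reads at day −2 and 584, 1014 and 630 at day 1. They had 515, 779 and 544 reads at day 3, and 525, 894 and 451 at day 7. The days overlapped throughout, and the log2 fold changes of −0.04, 0.04 and −0.00 each had an SE of 0.28 (edgeR adjusted p = 0.942, 0.932 and 1). None of the ML-792 days passed either, with log2 fold changes of −0.28, 0.23 and −0.06 from day −2 (edgeR adjusted p = 0.27, 0.314 and 0.82), and the arms did not differ at an adjusted p below 0.1 on any day.

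The members also differed in how much of their RNA was new. In DMSO at day −2, 25.6% of Rgs16 reads were labelled (350 of 1367, exact 95% interval 23.3 to 28.0), more than for 99.6% of the 10874 genes with at least 100 reads. Rgs4 followed with 14.1% (135 of 955, interval 11.99 to 16.5) and Rgs2 with 8.26% (1087 of 13161, interval 7.79 to 8.74), above 97.1% and 91.0% of genes. Rgs17 at 3.10% (9 of 290, interval 1.43 to 5.81) and Rgs12 at 2.52% (29 of 1150, interval 1.70 to 3.60) were near the median gene at 2.45%. Rgs19 at 0.767% (18 of 2348, interval 0.455 to 1.21) and Rgs10 at 0.717% (4 of 558, interval 0.196 to 1.83) were near the 10th percentile of 0.682%. All 4 labelled Rgs10 reads came from replicate B. These intervals do not overlap among Rgs16, Rgs4 and Rgs2. They cover the counting error of summed reads and not the spread between replicates, and reads carry no molecular identifiers. In replicates A, B and C the Rgs16 share was 29.9%, 19.1% and 28.2%, each outside its interval. The Rgs4 share was 14.2%, 12.3% and 16.2%, and that of Rgs2 was 8.28%, 7.15% and 9.04%.

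**Figure D4:**
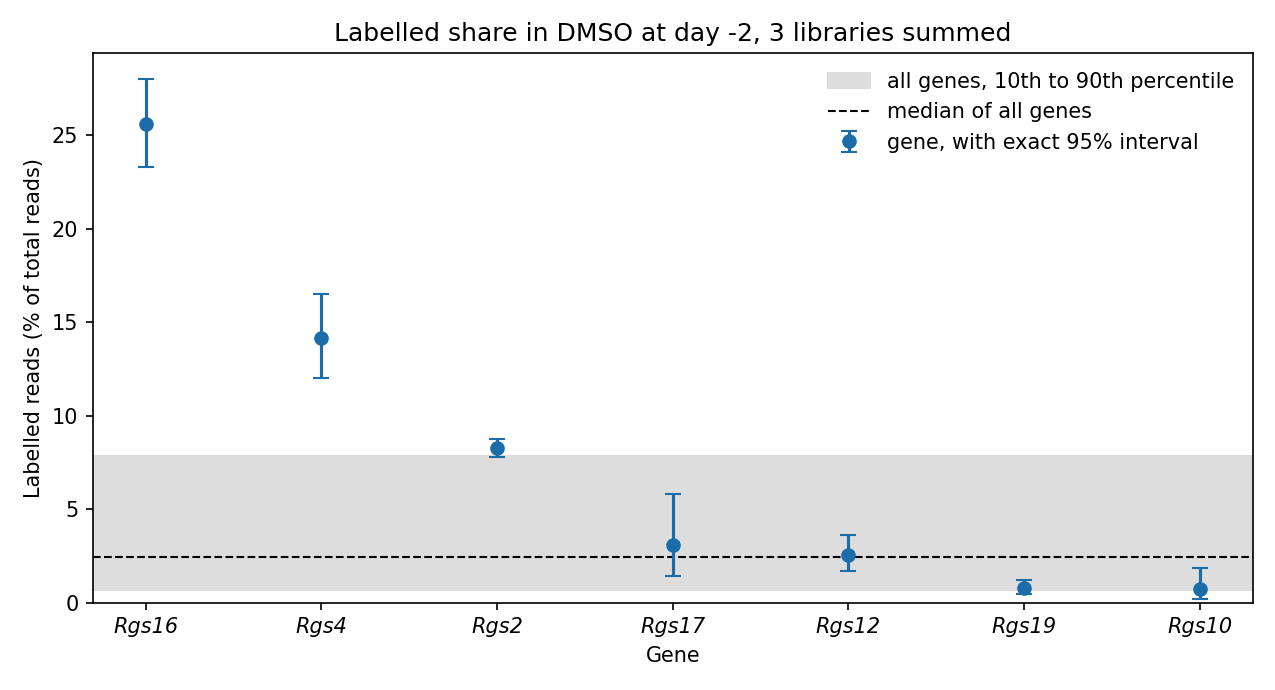
Share of reads that were labelled in DMSO at day −2 (y axis, percent) for the members with at least 100 reads, with exact 95% intervals. The grey band runs from the 10th to the 90th percentile of all genes and the dashed line is their median. Rgs16, Rgs4 and Rgs2 lie above the band, and Rgs19 and Rgs10 lie at its lower edge.

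T bases are what can be converted, and their share of an entry as a whole differed between members, with no count for the bases the reads covered. T made up 24.4% of the Rgs16 entry, 31.0% of Rgs4, 28.8% of Rgs2, 26.7% of Rgs19 and 29.1% of Rgs10, and the part of T content in the shares was not tested. Later in the time course, Rgs2 stayed above 86.9%, 83.1% and 85.7% of genes in DMSO and above 87.1%, 82.9% and 81.1% with ML-792 on days 1, 3 and 7. Rgs16 at day 7 with ML-792 had 29 labelled of 520 reads (5.58%), above 98.0% of genes.

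ATTTA, the core of AU-rich elements, which are known from mRNAs of short life, was counted in the same entries as a description chosen after the labelled shares had been seen. The Rgs2 entry held 5, or 2.13 per kb, and the Rgs16 entry held 4, or 2.48 per kb, including 3 copies of the longer TATTTAT. The Rgs4 entry held 1 and Rgs10 none, while Rgs17, with a labelled share near the median, held 27 in 7290 bases, or 3.70 per kb. Rgs5 at 3.17 and Rgs3 at 2.58 per kb also lay above Rgs2 and Rgs16. Rgs19 at 1.45 and Rgs12 at 0.874 lay below them. The median over all entries was 1.20 per kb and the 90th percentile 4.05, so Rgs2 and Rgs16 lay between these values and Rgs4, at 0.454 per kb, lay below the median. In the last 250 bases, TATTTAT occurred in 8.69% of 11485 windows, and Rgs16 held 2 copies there that overlap each other. For Rgs2, Rgs16 and Rgs4, the match nearest to the 3′ end is shown in capitals, in the sense of the gene. The other Rgs16 copy in that stretch overlaps it and is not marked in full.
Rgs2, chr1:143999357-143999381, minus strand: gggttctgtaATTTAatacttaata
Rgs16, chr1:153745331-153745357, plus strand: tgttaatattTATTTATtgttaacaaa
Rgs4, chr1:169742186-169742212, minus strand: tcatttgtgtTATTTATgatgttttgt

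Other genes of G protein signaling were counted from lists. At day 7 against day −2 in DMSO, with 1 entry per gene, 38.3% of 13331 genes passed, and 2525 of them were higher and 2586 lower. Of the 7 tested members other than Rgs2, 4 passed and these were lower. The median log2 fold change of 8 members, with Rgs2 included as a description, was −2.18 against −0.02 for all genes. Among 9 tested Gα genes, the substrates of RGS proteins, 5 were lower and 0 higher (median −1.02). They included Gnaz, which encodes Gαz (log2 −2.52, edgeR adjusted p = 0.00031), Gnai2 (−1.20, adjusted p = 0.00447) and Gnai3 (−1.12, adjusted p = 0.000662), which both encode Gαi. Of 12 Gβ and Gγ genes, 2 were higher and 5 lower. The largest changes were Gng3 at 5.50, from a mean of 0.296 to 18.6 normalized counts, Gng8 at −3.69 and Gnb4 at −2.99.

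Of 27 tested receptors, 8 were higher and 12 lower (median −0.83). The fatty acid receptors Ffar4 and Ffar2 went from mean normalized counts of 0.298 and 5.47 at day −2 to 274 and 1675 at day 7. The receptor Hcar2, which couples to Gαi and restrains lipolysis, went from 0.298 to 143. Of 6 protein kinase A subunits, which carry the cAMP signal, 3 were higher and 1 lower, the higher ones being Prkar2b (log2 1.51), Prkaca (1.43) and Prkar2a (1.15). Of 13 phosphodiesterases, which break down cyclic nucleotides, 1 was higher and 3 lower. The higher one was Pde3b, the insulin-regulated enzyme of fat cells, with counts of 20.4 at day −2 and 1131 at day 7 (edgeR adjusted p = 3e-10). Of 5 adenylyl cyclases, 1 was higher and 1 lower, and of 6 receptor kinases and arrestins, Arrb1 was higher (log2 0.95).

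In the comparison of ML-792 with DMSO at day 7, 11.6% of all genes passed at an adjusted p below 0.1 (804 higher and 744 lower). Of the 7 tested members other than Rgs2, Rgs16 was higher. None of 9 Gα genes or 6 protein kinase A subunits passed, with a median log2 fold change of 0.13 for the Gα genes. Among 27 receptors 5 were higher and 2 lower, with S1pr1, a receptor for sphingosine 1-phosphate, at 37.1 against 2.59 mean counts (log2 3.79, edgeR adjusted p = 5.39e-07). Among 13 phosphodiesterases 2 were higher and 2 lower. Pde11a was 4.78 higher on the log2 scale (edgeR adjusted p = 8.72e-06), and Pde4d, a cAMP-specific enzyme, fell by 1.17 on that scale (edgeR adjusted p = 4.21e-06). Adcy6, Gng2 and Grk5 were higher, by 0.81, 0.98 and 0.75 (edgeR adjusted p = 0.0314, 0.000569 and 0.0132).

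Of 12 further RGS genes, 5 had more than 3 reads in some library and 1, Rgs20 of the RZ subfamily, was tested. It was lower at day 7 in DMSO, at a mean of 24.8 against 79.8 normalized counts (log2 −1.68, SE 0.40, edgeR adjusted p = 0.00272). Rgs7, Rgs14 and Rgs21 had no reads in any library.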

How the data were processed

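QuantSeq 3′ end libraries of 24 samples were read from 2 tables of the whole series. The authors aligned single reads of 50 bases with SlamDunk to mm10 and counted them over 3′ UTR entries from RefSeq, and they deposited counts per entry, as total reads and as reads with T-to-C conversions. Base calls were made with bcl2fastq 2.17.1.14 per the submitters' processing notes. Library columns that match no sample here, 6 in each table, were not used. Groups came from the sample titles, in which _2 was read as day −2 because the study sampled days −2, 1, 3 and 7, and whose letters A, B and C name 3 biological replicates per the study's methods.

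Counts were filtered with filterByExpr (minimum count 10, minimum total 15) and tested with edgeR 4.0.16 (robust quasi-likelihood, TMM factors of the total reads for both tables) in R 4.3.3, with Benjamini-Hochberg adjustment over all tested entries, 26563 in total reads and 10589 in labelled reads. Days were compared within each arm of 12 libraries (threshold 0.01) and ML-792 with DMSO in a fit of all 24 libraries (threshold 0.1). A normalized count is the count divided by the effective library size, times the mean effective library size. Total reads ranged from 13554718 to 27013352 per library and labelled reads from 115709 to 820046, so that low labelled counts are the least precise.

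Members and lists were chosen with earlier results of these data known. The text names the 9 members, up to 3 called genes with the largest change per pathway list, and the 5 genes closest to Rgs2 in each measure. Alternatives were DESeq2 1.42.0, other filters, 1 entry per gene, other library sets, labelled scaling, a replicate block and leaving out each replicate. The scripts were tested on simulated data. Numbers of T bases read from GRCm38.p6 equalled the deposited ones for 26923 of 26923 entries.

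Entries of 1 gene share reads. Rgs2, Rgs4 and Rgs16 had 1, 1 and 1 entries, and the 2 entries of Rgs10 held the same counts.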

Additional observations from a re-analysis of the deposited data

Results flagged for a closer look

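For Rgs16, the response to ML-792 differed between days by a test of the difference itself, which was run for 7 members and not for Rgs2. In total reads, edgeR's F-test of the interaction of day and treatment gave an adjusted p of 8.38e-06. On the log2 scale, ML-792 differed from DMSO by −0.17, −1.32, 0.30 and 3.50 on days −2, 1, 3 and 7. In labelled reads, the same test gave an adjusted p of 0.439 with edgeR.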

How the results depend on the processing

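Which members passed for ML-792 against DMSO in total reads depended on the setting. Rgs16 passed in all of them, at day 7 with log2 values from 3.12 to 4.30 and adjusted p from 1.18e-20 to 0.00307. The count was 1 as reported, 2 with DESeq2 (Rgs4 added), 3 with no filter on low counts (Rgs4 and Rgs12 added), 2 with 1 entry per gene (Rgs4 added), and 1 to 2 when a replicate was left out (Rgs12 added without replicate B). With the replicate letter as a block it was 3 (Rgs4 and Rgs12 added), and the interaction count went from 1 to 2 (Rgs12 added). The block changed no other count by more than 1.5 times. No source says that a letter marks a shared culture or day. Deviations from the group means correlated at a mean of 0.19 (lowest −0.17) between libraries of the same letter and −0.09 between letters, and 22 of 24 libraries correlated best with their own letter, as a hint from the data. Replicate B was the lowest Rgs12 and the highest Rgs19 library in 8 of 8 groups.

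In labelled reads, 3 of the 3 tested members other than Rgs2 passed over each course. Rgs2 was chosen on these libraries, so the count of 4 with Rgs2 included is a description and no test. In DMSO the count without Rgs2 was 2 (Rgs4 and Rgs16) without replicate A or C, and 3 without replicate B. With Rgs2 included, that range was 2 to 4, again as a description. With ML-792 the count without Rgs2 was 1 (Rgs16) with scaling by labelled reads. For ML-792 against DMSO it was 1 with DESeq2 and 0 to 1 when a replicate was left out, and the interaction count was 0 to 1, in each case Rgs16. Labelled Rgs2 with ML-792 at day 7 against day −2 turned from −0.92 to 0.67 (log2) with scaling by labelled reads, since the labelled share of the libraries fell. Rgs2 was chosen for its fall with ML-792, so its values between the arms under the alternatives are a description and no test. On days 1, 3 and 7, over both measures, they ran from −2.79 to −1.09 (log2). In all, 1041 results for single members counted as unchanged, 45 lost a call, 32 gained one, 1 reversed and 1 moved. These counts include Rgs2 against day −2, which is a description, since Rgs2 was chosen on these libraries. Unchanged means the same call, and values that passed in neither setting could change sign. For Rgs2 between the arms, which has no test, it means a value within the SD of that difference over the replicates. Labelled reads limit the rest: 5 of the 9 members had too few to be tested.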
